A study of Mus musculus with 24 samples.

Results

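The core loop of the circadian clock comprises 10 genes in mouse, Arntl (also named Bmal1), Clock, Npas2, Per1, Per2, Per3, Cry1, Cry2, Nr1d1 and Nr1d2, and their transcripts were followed here in every liver of a steatohepatitis study. The genes were found by their symbols among the 78298 gene IDs of the count table. All 10 were present and all 10 passed the filter on low counts that left 17456 genes for testing. Liver RNA was sequenced from 18 steatohepatitis model mice and 6 normal control mice, with 1 library per mouse. Steatohepatitis is inflammation of a liver that holds fat. The labels give no way of inducing the disease, strain, sex, age or batch for either group. They also give no hour of collection, so for genes that cycle over the day a changed level and a changed phase cannot be told apart.

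In the clock of mammalian cells, ARNTL pairs with CLOCK or with its relative NPAS2 and the pair binds E-boxes in DNA, where it switches on the Per, Cry and Nr1d genes. PER and CRY proteins then enter the nucleus and hold the pair back, while the NR1D proteins (REV-ERB alpha and beta) silence Arntl and other genes through a second DNA element, the RORE, on which ROR proteins act as activators. In liver the cycle is set by feeding, hormones and body temperature as well as by signals from the brain, and Arntl transcripts peak in a different part of the day from those of Nr1d1, Per2 and Per3.

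In model livers 4 of the 10 genes were higher (Nr1d1, Per3, Per2 and Nr1d2) and 4 were lower (Arntl, Cry1, Per1 and Clock), while Npas2 and Cry2 did not pass the test (edgeR's quasi-likelihood F test at an adjusted p below 0.05, by Benjamini and Hochberg over all genes tested). Across all genes tested, 31.2% were called higher, 28.8% lower and 60% either way, so a call in itself does not set a clock gene apart from other genes. The largest differences were those of Arntl, with a log2 fold change of -2.53, Cry1 with -2.27 and Nr1d1 with 2.13, each as model over control. The groups did not overlap for Nr1d1, which was higher in every model liver than in any control, or for Cry1, which was lower in every model liver. Over all genes tested, 9.67% had every model mouse above every control and 6.02% had every model mouse below. In whole liver, fewer cells of a type and less RNA per cell cannot be told apart. Levels below are CPM, the count of a gene scaled to a common library size, with library sizes adjusted by TMM, a method that sets the bulk of genes to the same level.

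**Figure D1:**
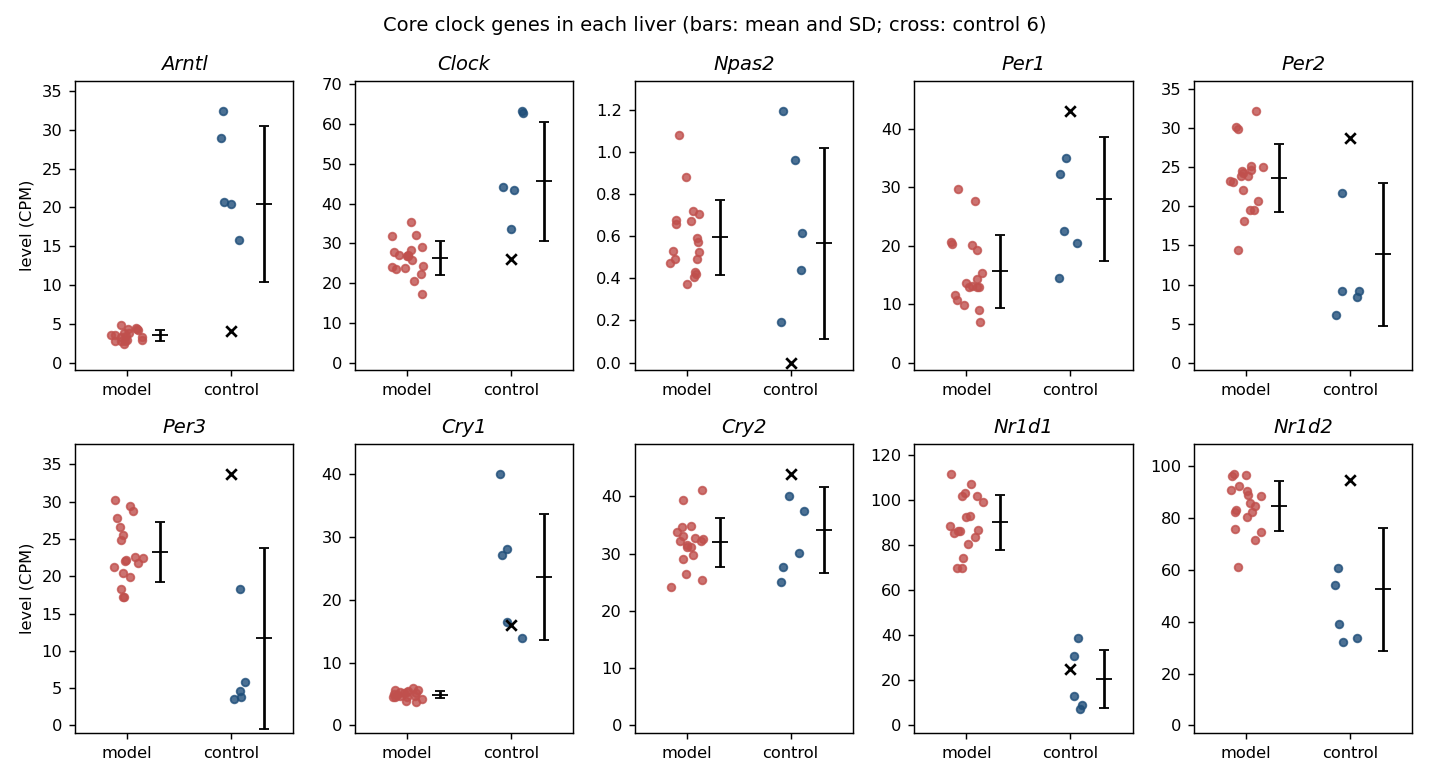
Level of each of the 10 genes in every liver, in CPM on a linear axis of its own for each gene, with 18 model mice at the left of each panel and 6 controls at the right; bars give the mean and SD and a black cross marks control 6. Model points lie above all control points for Nr1d1 and below all of them for Cry1, and control 6 lies beside the model points for Arntl, Clock, Per2 and Nr1d2.

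Library totals lay between 31.6 M and 58.4 M counts, at which 3 counts stand for 0.0514 to 0.0949 CPM by library totals, without TMM factors. The hepatocyte markers were abundant in every liver, at a summed 56270 to 116800 CPM in model mice and 114500 to 179900 CPM in controls. Mitochondrial transcripts took 4.11% to 8.09% of counts in model mice and 3.6% to 5.94% in controls. The labels number the mice but name no shared cage, litter or day, and p-values rest on the spread between mice as sampled. Control 6 stood apart from the other controls in the clock genes: it had the lowest Arntl, Clock and Npas2 and the highest Per1, Per2, Per3, Cry2 and Nr1d2 of the 6. Results are therefore given with and without it where it matters.

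Of the activators, Arntl encodes the partner that the loop cannot do without (ENSMUSG00000055116, GRCm39 chr7:112806672-112913333, plus strand). Its levels in model mice ran between 2.38 and 4.79 CPM with a median of 3.49 CPM. Controls 1 to 6 had 28.9, 32.4, 15.9, 20.7, 20.4 and 4.02 CPM. All model livers were low, 5 controls were far above them, and control 6 lay inside the model range. The mean was 3.54 ± 0.698 CPM in model mice (SD, n = 18) and 20.4 ± 10.1 CPM in controls (SD, n = 6), a log2 fold change of -2.53 with a standard error of 0.206 (edgeR adjusted p = 2.74e-10). Without control 6 the log2 fold change was -2.75.

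Clock encodes the usual partner of ARNTL (ENSMUSG00000029238, GRCm39 chr5:76357715-76452639, minus strand). Model mice held 17.2 to 35.4 CPM with a median of 26.9 CPM, and controls 26.2 to 63.3 CPM with a median of 43.8 CPM. Controls 5 and 6 lay within the model range and the other 4 above it. This gave a log2 fold change of -0.79 with a standard error of 0.134 (edgeR adjusted p = 1.52e-05), a smaller fall than that of Arntl. The ratio of Clock to Arntl within a library was thus larger in model livers, at log2 values of 2.38 to 3.44, against 0.43 to 2.70 in controls, where control 6 alone reached the model range.

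Npas2 encodes a second partner of ARNTL and was the scarcest of the 10 transcripts per kilobase (ENSMUSG00000026077, GRCm39 chr1:39232812-39402317, plus strand). It reached 0.371 to 1.08 CPM in model mice, while controls 1 to 6 had 0.617, 1.19, 0.193, 0.959, 0.440 and 0 CPM. Control 6 had no count at all for it, in a library where 3 counts were the floor, and control 3 had 6 counts. The groups overlapped and the log2 fold change of 0.04, with a standard error of 0.344, did not pass the test (edgeR adjusted p = 0.919). Its sign turned without control 6, to -0.21. The exons of Npas2 share 691 bases, 14.4% of their length, with ENSMUSG00000131701 on the opposite strand, and whether counting used strand is not given in the sources used here; that gene had 8.17% as many counts as Npas2.

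Sequences before the start sites were read from RefSeq for the build GRCm38.p6, an earlier build than that of the counts, to show the elements through which the loop is known to act. The table held 9 of the 10 genes, all but Per2, in 13 windows. The motifs searched on both strands were the E-box CACGTG, its variant CACGTT called the E-prime box, the RORE as TAGGTCA or TGGGTCA, and the D-box TTATGTAA or TTACGTAA, the element of the DBP and NFIL3 proteins. No matches overlapped. Of 32851 promoters in the table, the 250 bases before the start held an E-box in 6.02%, an E-prime box in 3.85%, a RORE in 5.38% and a D-box in 0.93%. Positions count back from the start site, with -1 as the last base before it. Of the clock genes, 4 held an E-box or E-prime box there: Cry1, Cry2, Per1 and Nr1d1. A match describes the letters and is not evidence of binding in these livers. Shown with the motif in capitals are Arntl, Cry1 and Nr1d1, which had the largest changes, and Per1 and Per3, the Per genes searched. For Arntl the RORE begins at base 31 after the second of its start sites, in a window of 300 bases that holds a RORE in 6.45% of promoters, and only the 27 bases around it are given.
Arntl, chr7:113207531-113207557, plus strand: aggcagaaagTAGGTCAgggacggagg
Cry1, chr10:85185055-85185304, minus strand: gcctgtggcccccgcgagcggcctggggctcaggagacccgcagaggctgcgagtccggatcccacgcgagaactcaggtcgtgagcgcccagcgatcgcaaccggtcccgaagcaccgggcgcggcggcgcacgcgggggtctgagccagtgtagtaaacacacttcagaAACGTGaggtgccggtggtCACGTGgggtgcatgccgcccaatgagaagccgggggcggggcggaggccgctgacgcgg
Per1, chr11:69098699-69098948, plus strand: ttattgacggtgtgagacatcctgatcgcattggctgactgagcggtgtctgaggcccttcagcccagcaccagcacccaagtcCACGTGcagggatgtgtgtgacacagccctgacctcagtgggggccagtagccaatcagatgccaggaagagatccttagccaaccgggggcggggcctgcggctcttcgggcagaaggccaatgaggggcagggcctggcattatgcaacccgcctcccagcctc
Nr1d1, chr11:98775378-98775627, minus strand: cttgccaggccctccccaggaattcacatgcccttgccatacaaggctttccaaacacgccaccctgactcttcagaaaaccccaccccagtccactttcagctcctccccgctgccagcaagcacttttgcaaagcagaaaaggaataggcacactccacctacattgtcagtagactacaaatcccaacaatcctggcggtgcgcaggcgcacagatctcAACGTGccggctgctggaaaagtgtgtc
Per3, chr4:151044666-151044915, minus strand: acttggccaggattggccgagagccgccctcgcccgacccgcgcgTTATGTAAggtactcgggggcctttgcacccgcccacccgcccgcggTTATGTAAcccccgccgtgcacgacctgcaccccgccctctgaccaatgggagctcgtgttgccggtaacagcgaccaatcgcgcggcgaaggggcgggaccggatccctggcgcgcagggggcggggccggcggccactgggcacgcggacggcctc

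In the order given, the Arntl site shows the letters of a RORE, the kind of element on which NR1D and ROR proteins compete. Cry1 holds an E-prime box at -79, read on the other strand as AACGTG, and an E-box at -60. Per1 has an E-box at -166 before the first of its start sites, Nr1d1 an E-prime box at -28, also on the other strand, and Per3 a D-box at -205 and again at -158. Cry2 held an E-prime box at -166, though its level did not pass the test between the groups. Genes with E-box letters in this window thus include one that rose (Nr1d1), a pair that fell (Cry1 and Per1) and one that did not pass the test (Cry2).

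The repressors moved in different directions. Cry1 encodes the stronger of the CRY repressors (ENSMUSG00000020038, GRCm39 chr10:84967564-85020928, minus strand). Model mice held 3.79 to 5.96 CPM with a median of 4.93 CPM, and controls 1 to 6 had 40.02, 28.04, 27.2, 13.9, 16.4 and 16.1 CPM. The lowest control was far above the highest model mouse. Cry1 thus had a log2 fold change of -2.27 with a standard error of 0.135 (edgeR adjusted p = 6.34e-13). Control 6, which resembled model mice in Arntl, was on the side of the other controls in Cry1.

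Cry2 encodes the second CRY protein (ENSMUSG00000068742, GRCm39 chr2:92233991-92264388, minus strand). Model mice held 24.2 to 41.1 CPM and controls 25.1 to 43.9 CPM, so that 5 controls lay within the model range. The log2 fold change was -0.09 with a standard error of 0.102 (edgeR adjusted p = 0.448). With library totals in place of TMM factors it turned to 0.24 and passed the test (adjusted p = 0.0295), since that scaling moved the median of all genes by 0.33. Set against each other inside a library, where scaling cancels, Cry1 over Cry2 had a log2 ratio of -3.15 to -2.10 in model mice, against -1.45 to 0.53 in controls.

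Per1, whose transcription also answers directly to glucocorticoids and cyclic AMP, was lower in model livers (ENSMUSG00000020893, GRCm39 chr11:68986043-69000786, plus strand). Model mice held 6.92 to 29.7 CPM with a median of 13.4 CPM. Controls 1 to 6 had 14.4, 35.0, 22.5, 20.5, 32.2 and 43.0 CPM, of which 3 lay above the model range and 3 within it. The log2 fold change was -0.84 with a standard error of 0.239 (edgeR adjusted p = 0.00387), and with library totals it was -0.50 and no longer passed (adjusted p = 0.0702).

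Per2, a scaffold of the repressor complex, was higher in model livers (ENSMUSG00000055866, GRCm39 chr1:91343704-91387046, minus strand). Model mice held 14.4 to 32.2 CPM with a median of 23.9 CPM, and controls 1 to 6 had 9.11, 6.13, 21.7, 9.16, 8.40 and 28.8 CPM. Controls 3 and 6 lay within the model range and the other 4 below it. Its log2 fold change was 0.77 with a standard error of 0.228 (edgeR adjusted p = 0.0053), and 1.11 without control 6. Within a library, Per2 over Per1 had log2 ratios of -0.21 to 1.84 in model mice, against -2.51 to -0.05 in controls.

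Per3 encodes another PER protein and, Npas2 aside, had the largest ratio of the highest to the lowest control, at 9.496 (ENSMUSG00000028957, GRCm39 chr4:151088109-151129122, minus strand). Model mice held 17.2 to 30.2 CPM with a median of 22.3 CPM. Controls 1 to 6 had 4.61, 3.85, 18.3, 3.55, 5.88 and 33.7 CPM: 4 far below the model mice, control 3 within their range and control 6 above every one of them. The log2 fold change was 1.00 with a standard error of 0.331 (edgeR adjusted p = 0.0116). Without control 6 it was 1.68 with a standard error of 0.270 (adjusted p = 1.18e-05), so that this 1 library sets much of its size.

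Nr1d1 encodes REV-ERB alpha, the haem-binding repressor of Arntl, and had the highest level per kilobase of the 10 in model livers (ENSMUSG00000020889, GRCm39 chr11:98658758-98666159, minus strand). Model mice held 70.0 to 111.8 CPM with a median of 87.6 CPM, and controls 1 to 6 had 7.11, 13.2, 9.14, 39.0, 30.6 and 25.1 CPM. The highest control was well below the lowest model mouse. Nr1d1 had a log2 fold change of 2.13 with a standard error of 0.246 (edgeR adjusted p = 7.12e-08), and 2.19 without control 6. Exons of Nr1d1 overlap those of Thra, the thyroid hormone receptor gene on the other strand, over 263 bases or 8.5% of Nr1d1's exon length. Thra averaged 14.2 ± 1.37 CPM in model mice (SD, n = 18) and 10.2 ± 2.74 CPM in controls (SD, n = 6). Summed over libraries, Thra had 15.8% as many counts as Nr1d1 in model mice and 51.4% in controls, and how reads in the overlap were shared out is not given in the sources used here.

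Nr1d2 encodes REV-ERB beta, which works beside REV-ERB alpha (ENSMUSG00000021775, GRCm39 chr14:4230569-4265642, plus strand). Model mice held 61.0 to 97.1 CPM with a median of 85.3 CPM, and controls 1 to 6 had 33.9, 32.04, 60.7, 54.1, 39.2 and 94.9 CPM. Of the controls, 5 lay below the model range, control 3 only just, and control 6 inside it. The log2 fold change was 0.69 with a standard error of 0.151 (edgeR adjusted p = 0.000329). Inside a library the log2 ratio of Nr1d1 to Nr1d2 was -0.38 to 0.70 in model mice, against -2.73 to -0.35 in controls.

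**Figure D2:**
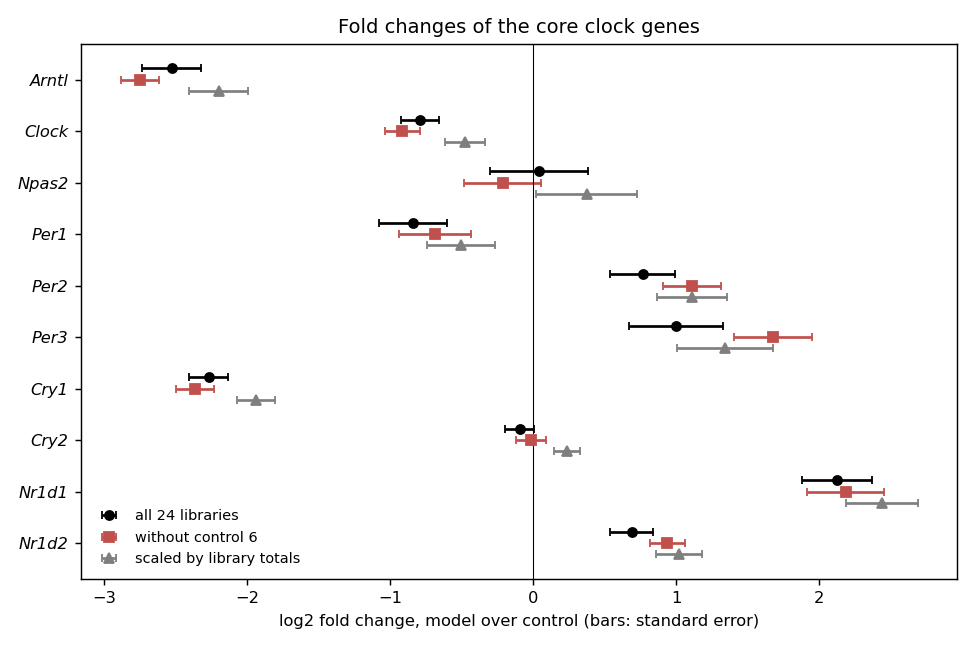
Log2 fold change of each gene, model over control, with its standard error as a bar, for all 24 libraries (circles), without control 6 (squares) and with library totals in place of TMM factors (triangles). Per3 is at 1.00 with all libraries and 1.68 without control 6, and Cry2 lies on both sides of 0 between scalings.

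The order of the genes by level, per kilobase of exon so that genes can be compared, differed between the groups. In model livers Nr1d1 led with 29.3 ± 3.99 CPM per kb (SD, n = 18), ahead of Nr1d2 with 15.6 ± 1.76 CPM per kb, and both steps down from them held in 18 of 18 mice. After them came Cry2 at 5.05 ± 0.675, Per2 at 4.03 ± 0.741, Per1 at 2.77 ± 1.10, Per3 at 2.42 ± 0.425, Clock at 1.92 ± 0.316 and Cry1 at 1.47 ± 0.183 CPM per kb. Arntl with 0.471 ± 0.0927 and Npas2 with 0.124 ± 0.0374 CPM per kb closed the order in 18 of 18 mice. Per1 was above Per3 in 9 of 18 model mice, so that these neighbours did not differ beyond their spread, and the other steps among the middle genes held in 14 or 16 of 18.

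In controls the order was looser. Nr1d2 came first with 9.70 ± 4.38 CPM per kb (SD, n = 6), then Cry1 with 7.07 ± 3.01, Nr1d1 with 6.73 ± 4.18, Cry2 with 5.39 ± 1.19, Per1 with 4.96 ± 1.89, Clock with 3.32 ± 1.10, Arntl with 2.71 ± 1.34 and Per2 with 2.37 ± 1.56 CPM per kb. Each of these was above its next neighbour in only 3 or 4 of 6 controls, apart from Per2, which was above Per3 (1.21 ± 1.27 CPM per kb) in 6 of 6, as Per3 was above Npas2 (0.118 ± 0.0945 CPM per kb). Cry1 thus had rank 8 in model livers and rank 2 in controls, and Nr1d1 rank 1 in model livers and rank 3 in controls.

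Each control was set against the range of the model mice gene by gene. Controls 1, 4 and 5 had 3 of the 10 genes within the model range and control 2 had 1, while Cry2 was within it in every control other than control 6. Control 3 had 4 genes within the range (Per1, Per2, Per3 and Cry2), and control 6 had 4 (Arntl, Clock, Per2 and Nr1d2). Control 6 was above the model range in Per1, Per3, Cry1 and Cry2 and below it in Npas2 and Nr1d1. No control had a profile that lay inside the model range throughout.

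**Figure D3:**
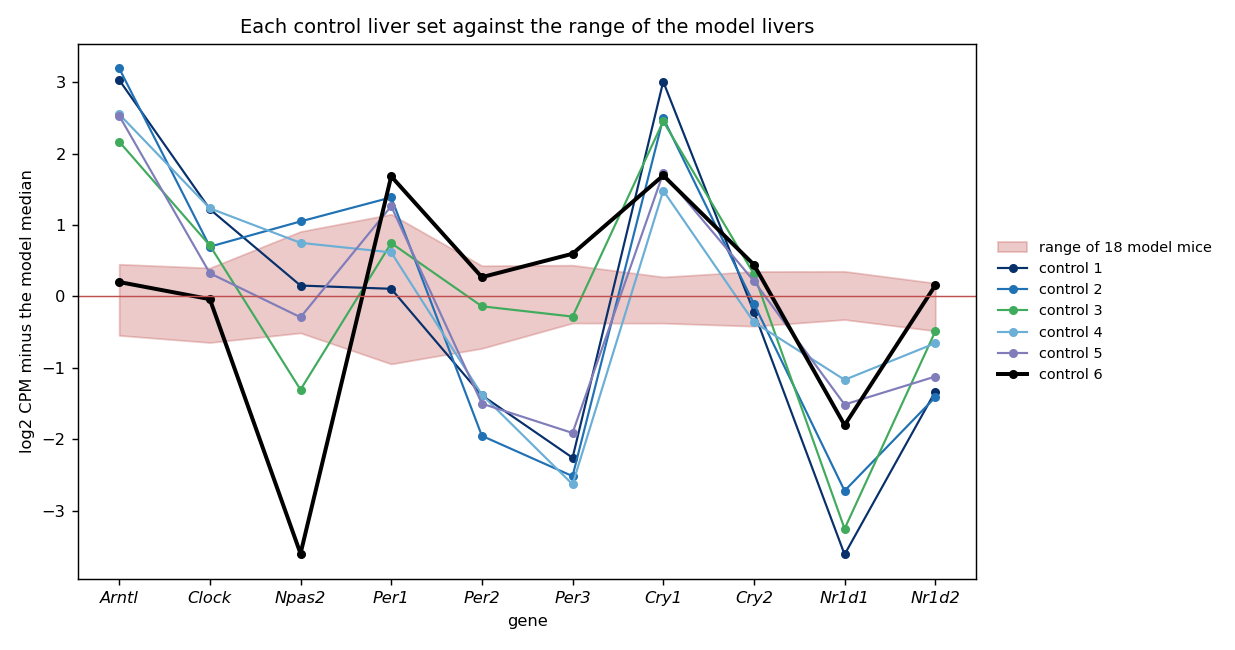
Log2 CPM of each gene minus the median of the model mice, with the range of the 18 model mice as a shaded band and each of the 6 controls as a line. Controls 1, 2, 4 and 5 share the shape with high Arntl and Cry1 and low Per2, Per3 and Nr1d1, and control 6 (black) crosses the band at Arntl and Clock but not at Cry1 or Nr1d1.

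Distances between livers over the 10 genes were measured as the mean absolute difference in log2 CPM. Among the 153 pairs of model mice the distance was 0.10 to 0.55 with a median of 0.31. Among the 15 pairs of controls it was 0.51 to 1.92 with a median of 0.90, and between a model mouse and a control it was 0.90 to 1.94 with a median of 1.29. Control 6 had a median distance of 1.07 to model mice and of 1.64 to the other controls. The balance of the loop, taken as the mean log2 CPM of the activators Arntl, Clock and Npas2 minus that of the 7 repressor genes, lay between -3.25 and -2.20 in model mice. Controls 1 to 6 had balances of -0.49, -0.43, -2.15, -0.67, -1.51 and -4.35, so that 5 controls stood above the model mice and control 6 was the lowest of all 24. Control 3 was only just above them. With 0.5 in place of 2 as the prior count added before the log, it was at -2.23, inside the model range of -3.30 to -2.22. The balance of control 6 without Npas2, the gene with no count there, was -1.78, inside the range of -1.89 to -1.09 in model mice. These scores are given as descriptions without a test.

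The spread within each group was compared for every gene by a two-sided permutation test of the mean absolute deviation from each group's median. Each mouse's deviation was taken once, from the median of its own group. The 24 deviations were then divided in all 134596 ways, with no new medians. The p-values are called exact because every division was counted, and they treat deviations from both medians as alike. On the log2 scale, Nr1d1 and Cry1 of the 10 genes varied less in model mice than in controls with adjusted p below 0.05. Of the genes tested, 0.0974%, 17 of 17456, did so. The SD of log2 CPM of Nr1d1 was 0.199 in model mice and 0.995 in controls (exact permutation p = 7.43e-06, the smallest this design allows; adjusted p = 0.0216). That of Cry1 was 0.183 in model mice and 0.597 in controls (exact permutation p = 4.46e-05, adjusted p = 0.0478). In CPM the SD of Nr1d1 was 12.3 in model mice and 12.9 in controls, around means of 90.2 and 20.7 CPM. The narrower spread of Nr1d1 is thus relative to its level. For Cry1 the SD in CPM was 0.610 in model mice and 10.1 in controls. Without any 1 of the 6 controls neither gene passed the adjustment: Nr1d1 then had exact p-values of 0.0011 to 0.00351 and Cry1 of 0.0107 to 0.0339. The smallest p that 5 controls allow is 2.97e-05. The difference in mean absolute deviation, model minus control, was -0.693 for Nr1d1 with all mice and -0.501 to -0.680 without 1 control. For Cry1 it was -0.364 with all mice, -0.209 without control 1 and -0.272 to -0.320 without another control. Cry1 also missed the threshold without any 1 of several model mice. Its adjusted p by the same test was 0.0532 without model mouse 4. Without model mouse 3, 5, 6, 7, 9, 13 or 18 it was between 0.0793 and 0.11.

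The SD of log2 CPM was smaller in model mice for the other 8 genes too, but these did not pass the adjustment. Of all 17456 genes tested, 9461 had the smaller mean absolute deviation in model mice. For 1118 of them the exact permutation p was below 0.05 before adjustment. Per3 had an SD of 0.254 in model mice and 1.34 in controls (exact permutation p = 0.00431, adjusted p = 0.323). Nr1d2 had 0.172 in model mice and 0.598 in controls (exact permutation p = 0.000357, adjusted p = 0.132), and Arntl 0.284 in model mice and 1.08 in controls (exact permutation p = 0.0536, adjusted p = 0.589). For Npas2 the SD was 0.372 in model mice and 1.71 in controls, where the library with no count weighs most (exact permutation p = 0.00257, adjusted p = 0.275). Per1 had an SD of 0.550 in model mice and 0.581 in controls (exact permutation p = 0.716, adjusted p = 0.972) and the widest spread of the 10 in model mice. The lowest Per1 levels were 6.92 CPM in model mouse 9 and 8.93 CPM in model mouse 4, and the highest were 29.7 CPM in model mouse 13 and 27.7 CPM in model mouse 14. In simulated normal values with 3 times wider controls, this test found 6 of 200 such genes among 3000, so that few true differences passed there. That simulation held no counts and fewer genes than the 17456 adjusted over here. The share of true differences that would pass in these data is therefore not known.

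**Figure D4:**
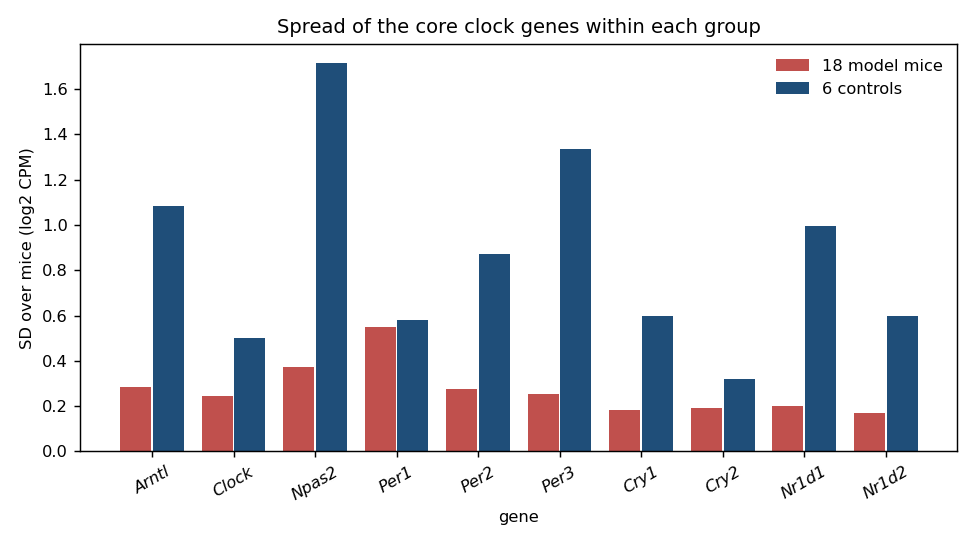
SD of log2 CPM over the 18 model mice (left bar of each pair) and over the 6 controls (right bar) for each gene. The bars of Nr1d1 stand at 0.199 in model mice and 0.995 in controls, and those of Per1 are close to each other, at 0.550 in model mice and 0.581 in controls.

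Arntl was set against the other 9 genes within each group, since a correlation over both groups would hold the difference between them. Over the 18 model mice it correlated with Npas2 alone (Pearson r = 0.799, permutation p = 4e-05, adjusted p = 0.00036 over 9 relations; Spearman rho = 0.775, adjusted p = 0.00234). The relation held without model mice 18 and 15, which are farthest from the Arntl median (r = 0.726, permutation p = 0.00167). The next largest were with Nr1d1 (r = 0.485, rho = 0.414, permutation p = 0.0415, adjusted p = 0.187) and Clock (r = 0.425, rho = 0.567, permutation p = 0.0768, adjusted p = 0.231). Arntl with Per2 had r = -0.169 and with Nr1d2 r = -0.247, neither past the threshold (permutation p = 0.508 and 0.328). Leaving out model mouse 3, which had the lowest Per2, Per3 and Nr1d2 of the 18, brought 3 further relations past the threshold, with Nr1d2 at r = -0.633, Per3 at r = -0.568 and Nr1d1 at r = 0.578 (permutation, adjusted p = 0.0297, 0.0417 and 0.0417).

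Over the 6 controls, Arntl correlated with Npas2 (Pearson r = 0.951, exact permutation p = 0.00694, adjusted p = 0.0208 over 9 relations) and inversely with Nr1d2 (r = -0.932, exact permutation p = 0.00278, adjusted p = 0.0208), Per2 (r = -0.873, exact permutation p = 0.00556, adjusted p = 0.0208) and Per3 (r = -0.884, exact permutation p = 0.0125, adjusted p = 0.0281). No Spearman correlation passed, with adjusted p-values from 0.075 and rho of 0.943 for Npas2, -0.943 for Nr1d2 and -0.829 for Per2 and Per3. Without the 2 controls farthest from the Arntl median, controls 6 and 2, r was 0.643 with Npas2, -0.862 with Nr1d2, -0.727 with Per2 and -0.729 with Per3 over the 4 left, which are too few to test. Without 1 control at a time r stayed between -0.962 and -0.904 for Nr1d2, -0.975 and -0.823 for Per2, -0.964 and -0.740 for Per3 and 0.781 and 0.982 for Npas2, with the smallest size without control 6 for each of them. None of the 4 relations passed without control 1, 2, 3 or 6, where the smallest exact p that 5 mice allow is 0.00833 before adjustment. Arntl and Nr1d1 had r = -0.333 in controls (exact permutation p = 0.636), and Arntl and Cry1 r = 0.491 (exact permutation p = 0.34). The difference in r between the groups was not tested.

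**Figure D5:**
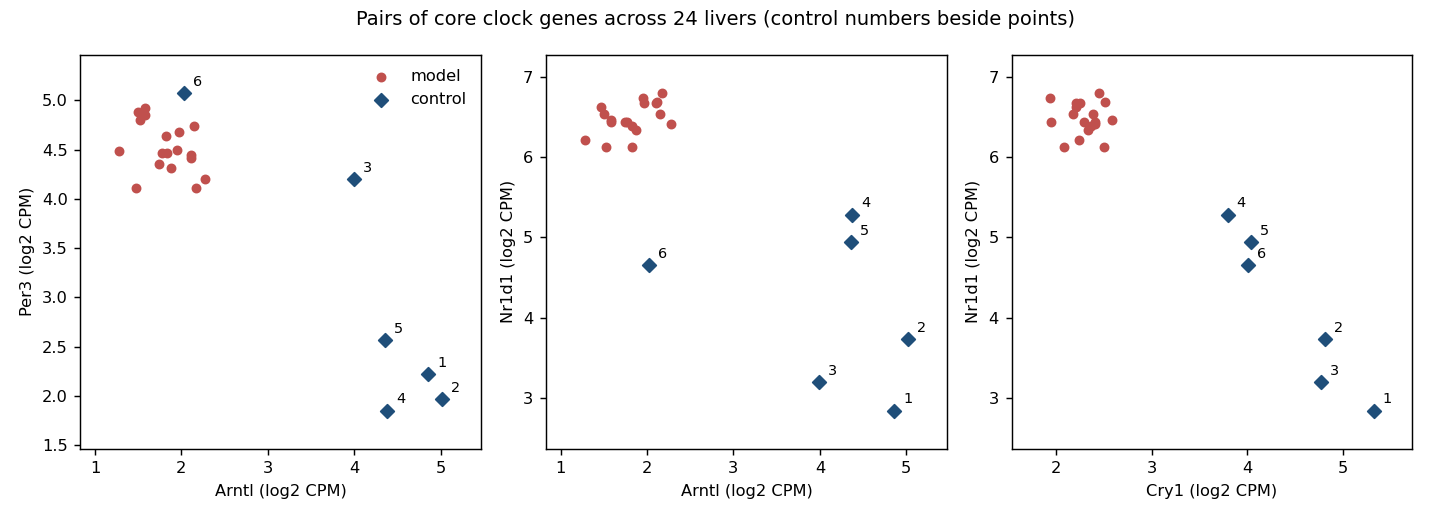
Log2 CPM of Per3 against Arntl, Nr1d1 against Arntl and Nr1d1 against Cry1, with 1 point per liver (18 model mice, 6 controls with their numbers). Model points form a compact cloud in each panel, and control 6 is close to it in the panel of Per3 against Arntl but apart from it in the panels with Nr1d1.

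The genes whose levels most resembled those of Arntl over the 18 model mice, among 9038 genes of at least 5 CPM on average, were Mapkbp1 (r = 0.819), Nat10 (0.780), Arhgef37 (0.772), Tnrc6c (0.772) and Ppp1r12b (0.761). Over the 6 controls their r with Arntl was 0.331 for Mapkbp1, 0.756 for Nat10, -0.721 for Arhgef37, 0.190 for Tnrc6c and -0.043 for Ppp1r12b, of which Nat10 was the highest. The most opposed in model mice were Tmem141 (r = -0.785), Gmnn (-0.762), Rpl34 (-0.743), Coq10b (-0.722) and Memo1 (-0.721). In controls these had r of 0.297 (Tmem141), -0.528 (Gmnn), -0.573 (Rpl34), -0.976 (Coq10b) and -0.413 (Memo1). Dbp, described below, had r with Arntl of -0.710 in model mice and -0.974 in controls. For Per2 the most alike in model mice were Ripk2 (r = 0.837), Tifa (0.821), Wipf3 (0.815), Cep95 (0.793) and Nfe2l2 (0.776), with r in controls of -0.143 (Ripk2), -0.223 (Tifa), 0.626 (Wipf3), 0.616 (Cep95) and -0.123 (Nfe2l2). The most opposed to Per2 in model mice were Frat1 (r = -0.863), Pja1 (-0.826), Ppfibp2 (-0.821), Eif2ak1 (-0.817) and Klhdc3 (-0.801), with r in controls of -0.709 (Frat1), -0.293 (Pja1), -0.769 (Ppfibp2), 0.098 (Eif2ak1) and -0.237 (Klhdc3). These values come from the ends of a ranking over all these genes in 18 libraries that share their scaling, and describe these libraries only.

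Around the loop stand factors that it drives and that feed back on it, of which 10 of 11 were tested. Model livers had 2 of them higher (Dbp and Bhlhe41) and 3 lower, Nfil3 and Rora among them, so that 50% were called, against 60% of all genes tested. Their median log2 fold change was 0.15, against 0.01 over all genes tested. Dbp, a direct output of the ARNTL and CLOCK pair that acts through D-boxes, held 45.7 to 80.4 CPM in model mice. Controls 1 to 6 had 1.85, 2.34, 7.56, 2.77, 5.13 and 40.5 CPM, so that control 6 came near the model range and the others stayed far below. Its log2 fold change was 2.68 with a standard error of 0.458 (edgeR adjusted p = 2.27e-05), and 4.02 without control 6. Nfil3, the repressor at D-boxes, held 6.04 to 12.6 CPM in model mice and 33.2 to 52.8 CPM in controls, with no overlap and a log2 fold change of -2.14 (standard error 0.118, edgeR adjusted p = 2.27e-13).

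Bhlhe41, a further repressor of the ARNTL and CLOCK pair, was higher in every model mouse, at 4.42 ± 1.06 CPM (SD, n = 18), than in controls, at 0.718 ± 0.580 CPM (SD, n = 6; log2 fold change 2.64, edgeR adjusted p = 1.15e-08). Rora, an activator at the RORE, was lower in model livers, with a log2 fold change of -0.60 (edgeR adjusted p = 8.67e-06). Tef, Hlf, Ciart, Bhlhe40 and Arntl2 did not pass the test. Without control 6, 5 of the 10 factors were called higher and 3 lower. Of the 17688 genes tested without that library, 5282 were called higher and 4897 lower.

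Of 18 genes for kinases, phosphatases and ubiquitin ligases of PER and CRY, 4 were called higher and 7 lower in model livers (median log2 fold change -0.14). That is 61.1% of them, near the 60% of all genes tested. Fbxl21, which encodes a ubiquitin ligase subunit for CRY, was higher (log2 fold change 1.27, edgeR adjusted p = 1.38e-09), as was Csnk1e, a kinase of PER (0.61). Csnk2b, a subunit of casein kinase 2, was lower (-0.41). Of 18 co-regulators of the loop, 1 was higher and 8 were lower (median -0.14), which is 50% of them, against 60% of all genes. The largest changes were those of Nampt (-0.53), Ppargc1a (-0.48) and Ncor1 (-0.33). Nampt makes a precursor of the NAD used by SIRT1, Ppargc1a is a coactivator of ROR proteins and Ncor1 the corepressor of REV-ERB. The small changes of both lists depended on scaling: with library totals 9 of the modifiers and 7 of the co-regulators were called higher by edgeR, and Csnk2b, Nampt, Ppargc1a and Ncor1 no longer passed the test. That scaling moved genes at large in the same way, with 9406 of all 17456 genes tested called higher and 1562 lower.

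Cues that set the liver clock were read through lists of their target genes, whose counts stand against 31.2% called higher, 28.8% called lower and 60% called either way among all genes tested. Of 10 feeding and insulin genes, 3 were higher and 6 lower in model livers (median log2 fold change -0.84), led by Igfbp1 (-2.67), G6pc (-2.09) and Pck1 (-2.06), all of which insulin lowers. Of 9 glucocorticoid response genes, 2 were higher and 5 lower (median -1.32), led by Zbtb16 (-3.47), Fkbp5 (-2.75) and Tat (-2.02). Of 8 temperature response genes, 1 was higher and 5 lower (median -0.44), led by Hspa1b (-0.90), Hsph1 (-0.87) and Hspa8 (-0.63). Hspa1b has a near-identical copy, Hspa1a, so its count is uncertain, and with library totals Hspa1b (edgeR adjusted p = 0.151), Hsp90aa1 (0.749) and Dnajb1 (0.146) did not pass. The temperature list then had 1 gene higher and 2 lower with a median of -0.12, and with upper-quartile factors 1 higher and 3 lower. The part of these cues in the levels of the clock genes was not tested.

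Markers of cell types differed between the groups as well, and whether cell numbers or RNA per cell changed was not tested. Among all genes tested, 31.2% were called higher and 28.8% lower. All 6 macrophage markers were higher in model livers, at a summed 107.9 to 533 CPM, against 18.96 to 44.68 CPM in controls, as were all 6 markers of stellate cells and fibroblasts, at 150 to 377 CPM in model livers and 50.7 to 130.7 CPM in controls. All 5 T cell and all 4 B cell markers, 4 of 5 endothelial and 1 of 5 cholangiocyte markers were higher too. The cholangiocyte share, 20%, was below the 31.2% of all genes. The T cell sums were 1.58 to 8.65 CPM in model mice and 1.45 to 2.42 CPM in controls, and the B cell sums 1.91 to 6.36 CPM in model mice and 0.933 to 2.23 CPM in controls. Endothelial sums were 43.6 to 133.2 CPM in model mice and 23.1 to 45.7 CPM in controls, and cholangiocyte sums 38.4 to 432.1 CPM in model mice and 43.2 to 82.3 CPM in controls. Of 6 hepatocyte markers 5 were lower. That count was 6 with RLE factors, another scaling, and 4 with upper-quartile factors or library totals. Control 6 had the lowest macrophage and stellate cell sums and the highest cholangiocyte sum of the controls, and a hepatocyte sum of 143400 CPM. The part of these cells in the levels of the clock genes was not tested.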

How the data were processed

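RNA was measured in 18 model and 6 control livers, grouped by the labels. The authors deposited raw counts per Ensembl gene; per the labels' protocols messenger RNA was captured with oligo(dT), and per the submitters' processing notes the build was GRCm39. The sources used here do not give the aligner, the counter, the annotation or any use of strand in counting. The deposited Length column, a number of exon bases (another unit than counts), served only for levels per kb. Symbols came from a reference table of names, which matched 51498 of 78298 IDs with 99.6% of counts. The 168 pairs of libraries within groups all differed beyond sampling noise (smallest chi-square per degree of freedom 17.0).

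The main test was edgeR 4.0.16 (R 4.3.3) with TMM factors, its default filter, robust quasi-likelihood F tests and Benjamini-Hochberg adjustment over 17456 genes, with calls at 0.05. The standard error of a log2 fold change is its size divided by the root of F. On simulated counts for 18 model against 6 control libraries it found 184 of 200 genes changed 2-fold among 17204, with 7 false calls. Log2 CPM used a prior count of 2. Permutation tests, correlations (100000 resamples over model mice, all orders over controls) and plots were made in scipy 1.17.1, matplotlib 3.10.9, pandas 2.3.3 and numpy 2.4.6 under Python 3.11.15. Alternatives were other scalings, DESeq2 1.42.0, limma-voom 3.58.1, other filters, thinned counts, the replicate block and each library left out; those for the controls' correlations were chosen after seeing the data, as were the counts of the gene lists under other scalings and without control 6. Intervals are not given, and the floor of 3 counts covers counting error only.

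The members and gene lists were chosen with earlier results of these data known. Genes are named by rule: every clock gene, the 5 most and 5 least correlated with Arntl and with Per2 over model mice (mean of at least 5 CPM, proper symbol), the 3 called genes of each list with the largest change, and genes whose exons overlap a clock gene. Further list members were named after their values were seen, and 1 list member is not reported here.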

Additional observations from a re-analysis of the deposited data

Results flagged for a closer look

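Arntl in control 6 was far from the other controls. At 4.02 CPM it was the lowest of 6, and on the log2 scale its gap to the nearest control was 0.657 of the group's whole range, above Dixon's critical value for 6 samples. Measured the same way over the 10 genes and the balance score, 11 groups of controls were examined, and chance passes about 1 in 20 such groups. The same liver had 40.5 CPM of Dbp, against 1.85 to 7.56 CPM in the other controls, and no count of Npas2.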

How the results depend on the processing

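The count of clock genes called, 4 higher and 4 lower, was at 4 and 4 without each library in turn. It was 5 higher and 3 lower with library totals alone, and 3 higher and 4 lower with the replicate block. Library totals alone put the median of all log2 fold changes at 0.34, against 0.01 with TMM factors, and gave 9406 genes higher and 1562 lower; Cry2 turned to 0.238, r of Arntl with Per2 in model mice turned to 0.034, and narrower spread in model mice was then called for 1 clock gene and 6 genes in all. Upper-quartile factors turned Cry2 to 0.004. Deviations from the group mean gave 26 genes with narrower spread, Per3 among them (adjusted p = 0.0324). At a threshold of 0.01 Per3 no longer passed (adjusted p = 0.0116). Npas2 was not tested under the filter of 1 CPM in 6 libraries. No pairing by the replicate numbers of the labels was seen (correlations of deviations between -0.293 and 0.067 over 6 numbers). Such correlations over all genes tested cannot exclude a pairing. With the number as a replicate block Npas2 turned to -0.02, Per2 was 0.884 (edgeR adjusted p = 0.0773), and 4427 genes were higher.

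Leaving out 1 library at a time, log2 fold changes ran from -0.213 to 0.428 for Npas2 (below 0 without control 3, 5 or 6 or model mouse 15) and from 0.813 to 1.68 for Per3. The spread difference of Per1 ran from -0.105 to 0.076. Clock genes with narrower spread numbered 0 to 2 and all such genes 0 to 23. Relations with Arntl past the threshold numbered 1 to 4 in model mice and 0 to 4 in controls, and r of Arntl with Per1 ran from -0.034 to 0.25 in model mice and from -0.823 to 0.045 in controls. The causes were not tested. Depth limits Npas2, with 0 to 49 counts per library.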
